A study of Zea mays with 50 samples.

Results

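The 6 transcripts described here, listed as pathogenesis-related genes, were followed through 50 RNA libraries of maize leaf protoplasts, which are leaf cells freed of their walls by digestion. They are 6 rows of the 30213 rows in the deposited expression table, chosen by row ID with earlier results of these data known. The rows are chiA (GRMZM2G051943), geb1 (GRMZM2G065585), PR-5 (GRMZM2G402631), PR-1 (GRMZM2G465226), and GRMZM2G112488 and GRMZM2G112538, which were both listed as PR10. All 6 were among the 28122 rows that reached at least 1 RPKM (reads scaled by row length and by the size of the library) in at least 2 libraries and were tested. A gene name table of a later maize assembly (Zm-B73-REFERENCE-NAM-5.0) gives the names chiA, geb1, PR-1 and PR-5 to the rows so called here. It holds no entry for GRMZM2G112488 and gives GRMZM2G112538 only the marker name IDP2565. The name PR10 belongs there to a different row, GRMZM2G112524. The 2 rows listed as PR10 are therefore called by their IDs and given no role.

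Pathogenesis-related proteins accumulate in plants after infection or wounding. Chitinases and beta-glucanases cut the polymers of fungal walls, thaumatin-like proteins such as PR-5 act against fungal membranes, and PR-1 proteins are small secreted proteins whose transcripts are widely read as a marker of salicylate-dependent defence. Isolating protoplasts wounds the leaf and exposes it to wall-digesting enzymes, treatments known to raise such transcripts in plants. No undigested leaf was analysed here, so the levels below have no undigested baseline.

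Protoplasts were made from leaves of B73 seedlings raised in darkness at 25 °C for 10 to 12 days, with more than 10 etiolated plants pooled. In 23 groups the cells transiently expressed 1 putative regulator of reproductive phasiRNAs (phased small RNAs of anthers) as a fusion to GFP, at the N-terminus except in ZFL2, where GFP sat at the C-terminus. Control cells expressed GFP alone under the 35S promoter. Protoplast preparations (preps) 1 and 3 received bHLH103, CSD4, DOF25, HSF2, NAC119, NAC29, OCL4, TCP23, ZFL2, ZHD5 and ZIM13. Preps 2 and 4 received ABI5, bHLH97, DOF7, EREB50, EREB69, GBP15, MYB131, NAC25, OFP9, WRKY81, ZFL1 and ZHD4. Each regulator had 1 library in either of its preps, as did GFP, so all regulators of a prep pair share the same 2 GFP libraries. The EREB69 libraries were the deepest, at 28153231 reads in prep 2 and 29950351 in prep 4, and the other 48 held 6830505 to 11875644 reads. Of the leaf markers, the mesophyll gene pep1 (PPC1) averaged 0.392 RPKM and Ppdk1 173 RPKM, and the 3 bundle sheath rows matched (me3 and 2 small subunits of Rubisco) summed to 17.3 to 89.7 RPKM. In bulk RNA of this kind, fewer cells that express a gene and less RNA per cell cannot be told apart.

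The highest of the 6 mean levels was 2426 times the lowest on the RPKM scale. The chitinase gene chiA was among the most abundant transcripts of these cells, with 1792 ± 651 RPKM (SD, n = 50), a range of 503 to 4004 RPKM and a median of 1729 RPKM. Its mean ranked 10 among all 30213 rows. PR-5, the thaumatin-like gene, averaged 245 ± 103 RPKM (SD, n = 50; 103 to 601, median 225) and ranked 265. GRMZM2G112488 averaged 152 ± 26.6 RPKM (SD, n = 50; 101 to 212, median 145). The beta-glucanase gene geb1 averaged 99.4 ± 43.0 RPKM (SD, n = 50; 37.1 to 243, median 90.9). GRMZM2G112538 stood far lower, at 3.77 ± 1.58 RPKM (SD, n = 50; 1.49 to 7.55, median 3.41), which rested on 12 to 82 reads per library. PR-1 was close to the detection limit, at 0.739 ± 0.358 RPKM (SD, n = 50; 0.0969 to 1.78, median 0.677). Its values rested on 1 to 43 reads, with a median of 7, so that single reads move its level. So the chitinase row was high and the PR-1 row nearly silent in the same cells. The row that carries the name PR10 in the gene table, GRMZM2G112524, averaged 139 ± 46.1 RPKM (SD, n = 50), near GRMZM2G112488 and well above GRMZM2G112538.

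The order of these levels was the same in nearly all libraries at its upper and lower ends and not in its middle. The chiA level exceeded that of PR-5 in 50 of 50 libraries, geb1 exceeded GRMZM2G112538 in 50 of 50 and GRMZM2G112538 exceeded PR-1 in 50 of 50. The middle pairs traded places: PR-5 was above GRMZM2G112488 in 39 of 50 libraries, and GRMZM2G112488 was above geb1 in 45 of 50. Neither of these middle pairs is separated beyond its spread over libraries. The ranges of chiA and PR-5 and of GRMZM2G112538 and PR-1 also overlapped across libraries. Of these neighbouring pairs only geb1 and GRMZM2G112538 had separate ranges, with 37.1 RPKM as the lowest geb1 value and 7.55 RPKM as the highest of GRMZM2G112538. In prep 1, PR-5 exceeded GRMZM2G112488 in 6 of 12 libraries, and in prep 2 in 13 of 13. GRMZM2G112488 was the steadiest of the 6, with an SD of 17.5% of its mean and a highest value 2.09 times its lowest. The corresponding SDs were 36.3% for chiA, 41.8% for PR-5, 41.9% for GRMZM2G112538, 43.2% for geb1 and 48.5% for PR-1, and the highest chiA value was 7.97 times the lowest.

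**Figure D1:**
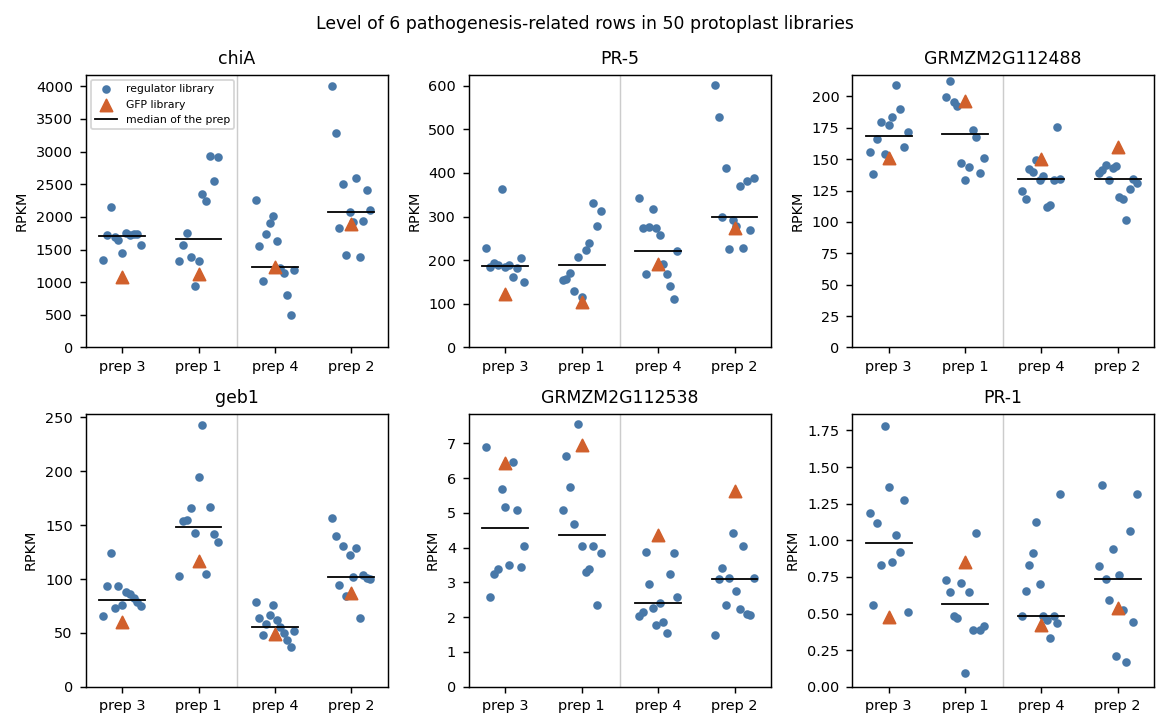
Level in RPKM of each of the 6 rows (1 panel each) in every library, grouped by protoplast prep, with regulator libraries as circles, the GFP library of each prep as a triangle and the prep median as a line. In prep 3 and prep 1 the GFP triangle of PR-5 lies below every regulator library, and in preps 4 and 2 that of GRMZM2G112538 lies above every one, while geb1 is lower in prep 3 than in prep 1 and in prep 4 than in prep 2.

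The first comparison asked whether any of the 23 regulators changed these rows against GFP alone. None did by the test used. Of 138 tests (6 rows by 23 regulators), 0 were called in limma at a Benjamini-Hochberg adjusted p below 0.05 over all rows of a comparison with an absolute log2 change of at least 1, where 0.208% of all rows were called over the same 23 comparisons (0.197% higher and 0.0111% lower). Without adjustment 17 of the 138 tests had p below 0.05, 5 of them higher and 12 lower than GFP, while 7.6% of all row tests did (3.95% higher and 3.64% lower). Of the 12 lower, 10 were tests of GRMZM2G112538, and of the 5 higher, 4 were tests of PR-5. Tests of a row within a prep pair share their GFP libraries and are not independent. Limma-voom on whole reads recovered from the RPKM also called 0, with 16 tests at an unadjusted p below 0.05 (7.03% of all rows). With 2 libraries on either side, the 95% interval of a single log2 change extended 1.29 to either side for geb1, 1.09 for chiA, 0.98 for PR-5, 0.83 for PR-1, 0.79 for GRMZM2G112538 and 0.36 for GRMZM2G112488, in the fit without prep as a block, the fit behind the changes below. With prep as a block it extended 0.48 for geb1, 0.82 for chiA, 0.78 for PR-5, 0.72 for PR-1, 0.80 for GRMZM2G112538 and 0.36 for GRMZM2G112488. The fit with the block also called 0 of the 138 tests, and 33 had an unadjusted p below 0.05 (12.2% of all rows).

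For chiA the highest change was in HSF2 cells, with 2936 RPKM in prep 1 and 1739 RPKM in prep 3, against 1124 and 1085 RPKM in the GFP cells of these preps. Both HSF2 libraries lay above both GFP libraries, and the log2 change was 1.03 ± 0.53 (SE; 95% interval −0.05 to 2.12; limma adjusted p 0.468). The limma adjusted p of this change was 0.158 with prep as a block. The lowest change was in ZFL1 cells, whose libraries were far apart at 2414 RPKM in prep 2 and 503 RPKM in prep 4, against 1885 and 1235 RPKM in GFP cells. They lay on opposite sides of their GFP libraries, and the change was −0.47 (95% interval −1.55 to 0.62). The highest chiA library of all was bHLH97 in prep 2, at 4004 RPKM, with 2265 RPKM in prep 4. The changes of chiA were above 0 in 19 of 23 regulators. In 12 of them both regulator libraries exceeded both GFP libraries, 10 in preps 1 and 3 and 2 in preps 2 and 4. Over all rows and regulators 18% of tests had both libraries above both GFP libraries and 18.8% had both below. Because the regulators of a prep pair are set against the same 2 GFP libraries, these counts are not independent of each other.

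The beta-glucanase gene geb1 had its highest change in ZIM13 cells, with 243 RPKM in prep 1 and 88.1 RPKM in prep 3, against 117 and 59.7 RPKM in GFP cells. Each ZIM13 library was above the GFP library of its own prep, but the prep 3 library lay below the GFP library of prep 1. The log2 change was 0.80 ± 0.63 (SE; 95% interval −0.49 to 2.09; limma adjusted p 0.724). With prep as a block the interval extended 0.48 to either side of this change, and the limma adjusted p was 0.150. MYB131 cells had the lowest change of geb1, −0.22 (95% interval −1.51 to 1.07), from 63.4 and 49.6 RPKM in preps 2 and 4, against 87.4 and 48.8 RPKM in GFP cells. Changes of geb1 were above 0 in 20 of 23 regulators, and in 16 both libraries exceeded the GFP library of their own prep, as in 28.2% of tests over all rows and regulators (29.4% had both below it). TCP23 alone, with 154 and 124 RPKM, had both libraries above both GFP libraries.

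PR-5 had its highest change in NAC29 cells, with 208 RPKM in prep 1 and 363 RPKM in prep 3, against 103 and 122 RPKM in GFP cells. The 2 groups did not overlap, and the log2 change was 1.29 ± 0.48 (SE; 95% interval 0.31 to 2.26; limma adjusted p 0.208). With prep as a block the limma adjusted p of this change was 0.0525. Its lowest change was in ZFL1 cells, −0.41 (95% interval −1.38 to 0.57), with 268 and 111 RPKM in preps 2 and 4, against 275 and 191 RPKM in GFP cells. The PR-5 libraries of bHLH97 were the highest of preps 2 and 4, at 601 and 342 RPKM. All 11 changes of PR-5 in preps 1 and 3 were above 0 and 9 of 12 in preps 2 and 4, and in 12 regulators (10 and 2 by prep pair) both libraries exceeded both GFP libraries. Over all rows and regulators 18% of tests had both libraries above both GFP libraries. The GFP libraries held the lowest PR-5 value of prep 1 and of prep 3, and these 2 libraries enter all 11 comparisons. There the median change of the 3 bundle sheath rows was above 0 too, from 0.08 (NAC29) to 0.99 (DOF25). That of the 4 mesophyll rows, some matched only by the symbol PDK1, ran from 0.16 (CSD4) to 0.45 (TCP23). Median changes of the 6 epidermis rows went both ways, from −0.22 (NAC29) to 0.08 (bHLH103). No bundle sheath or mesophyll row was called there. The part of these markers in the chiA and PR-5 changes was not tested.

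PR-1 had its highest change in EREB69 cells, with 1.32 RPKM in both preps, against 0.538 and 0.419 RPKM in GFP cells. Those 2 libraries were also the deepest of the series, with 40 and 43 reads on PR-1, against 5 and 4 reads in the GFP libraries. The log2 change was 0.90 ± 0.40 (SE; 95% interval 0.07 to 1.72; limma adjusted p 0.472). The limma adjusted p of this change was 0.229 with prep as a block. MYB131 cells had the lowest change, −0.39 (95% interval −1.22 to 0.43), from 0.166 and 0.332 RPKM, which were 2 and 3 reads. In the fit without the block, PR-1 changes of less than 0.83 in size could not be told from 0. The EREB69 change was larger, but it was set against few GFP reads and was not called. Its changes were above 0 in 16 of 23 regulators, with both libraries above both GFP libraries in 6 and below both in 1. Over all rows and regulators the shares were 18% above both and 18.8% below both.

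GRMZM2G112488 varied least and had narrow intervals. Its lowest change was in MYB131 cells, with 101 and 113 RPKM in preps 2 and 4, against 160 and 150 RPKM in GFP cells. The groups did not overlap, and the log2 change was −0.53 ± 0.17 (SE; 95% interval −0.89 to −0.17; limma adjusted p 0.0986). This was the smallest adjusted p of the 138 tests, and it stayed above 0.05 with prep as a block (0.0738) and in limma-voom (0.0936). In MYB131 cells 1 of the 4 mesophyll marker rows tested, Ppdk1 (GRMZM2G306345), was called higher than in GFP cells, where 2.21% of all rows were. Its log2 change was 1.39 ± 0.36 (SE; limma adjusted p 0.0204), while the median change of the 4 mesophyll rows was −0.10. Of these rows GRMZM2G097821 and GRMZM2G107196 matched only by the symbol PDK1, which may not stand for the mesophyll enzyme. That median may therefore not describe mesophyll genes alone. The part of the Ppdk1 change in the GRMZM2G112488 value was not tested. The highest change was 0.15 ± 0.17 (SE) in NAC119 cells, with 173 and 209 RPKM in preps 1 and 3, against 196 and 151 RPKM in GFP cells. In preps 2 and 4 all 12 changes were below 0 and in 11 both libraries lay below both GFP libraries, whereas in preps 1 and 3 changes went both ways, 5 above and 6 below 0, and the libraries overlapped in every regulator. Over all rows and the regulators of all preps, 18.8% of tests had both libraries below both GFP libraries.

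GRMZM2G112538 was lower than GFP in value in all 23 regulators. Its lowest change was in bHLH97 cells, with 1.49 and 2.03 RPKM in preps 2 and 4, against 5.62 and 4.38 RPKM in GFP cells. The groups did not overlap, and the log2 change was −1.28 ± 0.38 (SE; 95% interval −2.07 to −0.50; limma adjusted p 0.468). The change nearest to 0 was −0.03 ± 0.38 (SE) in NAC29 cells, with 7.55 and 5.68 RPKM in preps 1 and 3, against 6.95 and 6.44 RPKM in GFP cells. Both libraries lay below both GFP libraries in 18 of 23 regulators, 7 in preps 1 and 3 and 11 in preps 2 and 4. Over all rows and regulators 18.8% of tests had both libraries below both GFP libraries. The GFP library was the highest of prep 2 and of prep 4 for this row, so the same high GFP values enter all 12 comparisons there. With the other regulators of the same preps as the reference in place of GFP, 0 of the 138 tests were called (0.244% of all rows were, 0.219% higher and 0.025% lower). Of the 138 tests 7 had an unadjusted p below 0.05 (5.93% of all rows), and the sign of 48 uncalled changes turned. With this reference the changes of a row within a prep pair sum to 0. A row with all changes on one side of GFP therefore had to turn some signs, so the 48 turns do not test the changes against GFP.

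**Figure D2:**
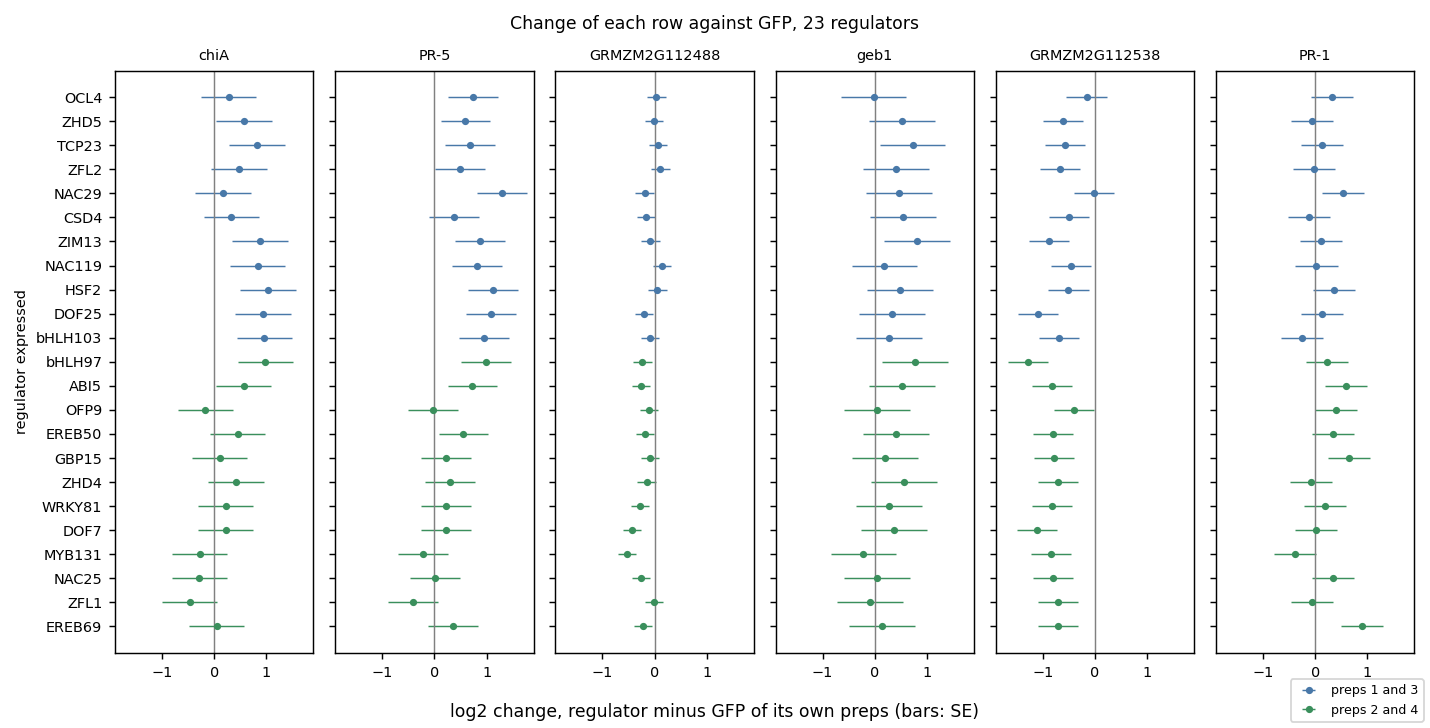
Log2 change of each row (1 panel each) in 23 regulators, as regulator minus the GFP libraries of its own preps, with bars of 1 SE from limma; the vertical line marks no change. Points of chiA and PR-5 in preps 1 and 3 lie right of the line and all points of GRMZM2G112538 lie left of it, from −1.28 to −0.03, while 0 of the 138 changes were called.

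A second comparison set the protoplast preps against each other within the same groups. Prep and the day and seedlings of an isolation cannot be told apart here. The beta-glucanase gene geb1 was lower in prep 3 than in prep 1 and in prep 4 than in prep 2. It averaged 83.1 ± 16.5 RPKM in prep 3 and 152 ± 39.2 RPKM in prep 1 (SD, n = 12 each), and it was lower in prep 3 in 12 of 12 groups, from −1.46 in ZIM13 to −0.29 in NAC119 on the log2 scale. The fitted log2 difference, prep 3 minus prep 1, was −0.85 ± 0.10 (SE; limma adjusted p 0.000211). In the other pair geb1 averaged 56.8 ± 12.2 RPKM in prep 4 and 109 ± 25.4 RPKM in prep 2 (SD, n = 13 each), lower in prep 4 in 13 of 13 groups. Its fitted difference, prep 4 minus prep 2, was −0.92 ± 0.08 (SE; limma adjusted p 1.89e-06).

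Between preps 3 and 1, geb1 was the only 1 of the 6 rows called (adjusted p below 0.05, no fold minimum), where 12.7% of all rows were called, 6.46% lower and 6.19% higher. PR-1 averaged 0.993 ± 0.385 RPKM in prep 3 and 0.574 ± 0.252 RPKM in prep 1 (SD, n = 12 each), was higher in prep 3 in 9 of 12 groups, and missed the threshold with a log2 difference of 0.47 ± 0.16 (SE; limma adjusted p 0.0668). It passed without the GFP libraries, with 0.56 ± 0.15 (SE; limma adjusted p 0.0339). The other 4 rows differed by −0.12 to 0.00 on the log2 scale, with adjusted p from 0.634 upward. Leaf markers also moved between these preps. Of the epidermis rows 3 of 6 were called lower in prep 3 (ocl3 and the 2 fdh1 rows). Of the bundle sheath rows 1 of 3 was called lower, a Rubisco small subunit, and their summed level had a median of 21.1 RPKM (17.3 to 28.4) in prep 3 and 30.7 RPKM (21.7 to 46.0) in prep 1. The mesophyll gene Ppdk1 was called higher, 1 of the 4 mesophyll rows tested. The summed level of the 5 matched mesophyll rows had a median of 189 RPKM (131 to 221) in prep 3 and 159 RPKM (129 to 203) in prep 1. Of these mesophyll rows GRMZM2G097821 and GRMZM2G107196 matched only by the symbol PDK1, which may not stand for the mesophyll enzyme. The summed epidermis level had a median of 46.8 RPKM in prep 3 and 51.5 RPKM in prep 1, with the OCL4 cells, which carry one of these markers, among the libraries. The part of these markers in the geb1 difference was not tested.

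Between preps 4 and 2, 3 of the 6 rows were called, all lower in prep 4, where 33.4% of all rows were called, 17.9% lower and 15.5% higher. Beside geb1 these were chiA and PR-5. chiA averaged 1400 ± 505 RPKM in prep 4 and 2258 ± 728 RPKM in prep 2 (SD, n = 13 each). Its log2 difference was −0.73 ± 0.17 (SE; limma adjusted p 0.00360), and it was lower in prep 4 in 12 of 13 groups, the exception being GBP15, with 1901 RPKM in prep 4 and 1414 RPKM in prep 2. PR-5 averaged 226 ± 70.5 RPKM in prep 4 and 350 ± 113 RPKM in prep 2 (SD, n = 13 each). It was likewise lower in 12 of 13 groups, with GBP15 again the exception, at 318 RPKM in prep 4 and 226 RPKM in prep 2, and its log2 difference was −0.64 ± 0.13 (SE; limma adjusted p 0.00147). The widest gap of chiA between the preps of one group was in ZFL1, −2.26 on the log2 scale. GRMZM2G112488, GRMZM2G112538 and PR-1 were not called, with log2 differences of 0.02, −0.15 and −0.05. Leaf markers moved with the same prep step: 3 of 4 mesophyll rows and 2 of 3 bundle sheath rows were called lower in prep 4, and of 6 epidermis rows ocl3 was called lower and ocl1 higher. The 3 mesophyll rows were Ppdk1, mdh6 and GRMZM2G107196. The last of these, also named pdlk1, and the uncalled GRMZM2G097821 carry the symbol PDK1, which may not stand for the mesophyll enzyme. Both also enter the summed mesophyll level. The bundle sheath rows called were the 2 small subunits of Rubisco, and the summed bundle sheath level had a median of 24.2 RPKM (18.2 to 31.8) in prep 4 and 53.7 RPKM (30.8 to 89.7) in prep 2. The summed mesophyll level had a median of 260 RPKM (176 to 387) in prep 4 and 273 RPKM (242 to 573) in prep 2. None of the mesophyll and bundle sheath rows was at 0 in any library, but the epidermis row ocl4 was at 0 in several, GFP among them. The part of these markers in the prep differences was not tested.

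**Figure D3:**
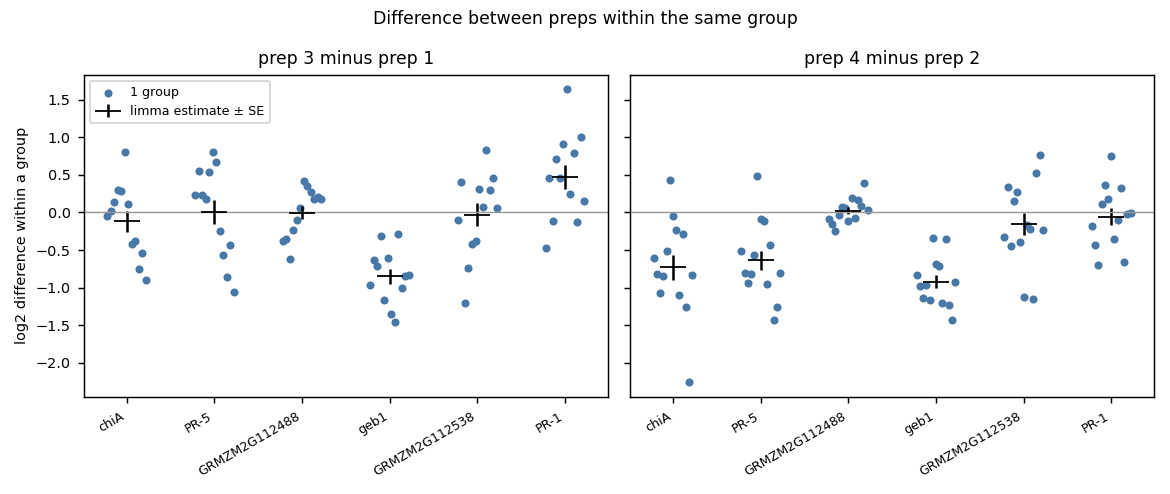
Log2 difference of each row within every group (points), as prep 3 minus prep 1 (left, 12 groups) and prep 4 minus prep 2 (right, 13 groups), with the limma estimate and its SE as a cross. All geb1 points lie below 0 in both panels, and 12 of 13 chiA and PR-5 points lie below 0 in the right panel.

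The groups stand in a fixed order in the columns of the table, with GFP at place 1 of each prep pair, and a further comparison described the rows along that order. Place and regulator cannot be told apart, since each place holds 1 group. The 2 EREB69 columns stand together at the end of the table, after all other columns of prep 4, and were given the last place, 13, of both preps. Over all 25 groups 0 of the 6 rows had a called slope, and 0% of all rows did. Within preps 2 and 4 the slopes of chiA and PR-5 were negative, −0.061 ± 0.024 and −0.049 ± 0.022 (SE, 13 groups), and 0 of the 6 rows were called, against 0.00356% of all rows. Without EREB69 they were −0.073 for chiA (limma adjusted p 0.210) and −0.068 for PR-5 (limma adjusted p 0.190). Within preps 1 and 3 the chiA level was higher at later places, by 0.074 ± 0.021 log2 units per place (SE, 12 groups; limma adjusted p 0.0431), where 8.15% of all rows were called, 4.22% higher and 3.92% lower. This call was lost without the GFP group, where the slope was 0.063 ± 0.024 (SE; limma adjusted p 0.183). PR-5 had a slope of 0.063 ± 0.021 (SE; limma adjusted p 0.0846) and was not called.

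The slopes of chiA and PR-5 differed between the 2 prep pairs. The difference, preps 2 and 4 minus preps 1 and 3, was −0.13 ± 0.03 log2 units per place for chiA (SE; limma adjusted p 0.0138) and −0.11 ± 0.03 for PR-5 (SE; limma adjusted p 0.0367), and these were 2 of the 6 rows, where 7.76% of all rows were called, 5.15% in this direction and 2.61% in the other. The test was added after the slopes had been seen. Without the GFP groups and EREB69 the differences were −0.17 for chiA (limma adjusted p 0.00614) and −0.14 for PR-5 (limma adjusted p 0.00788), where 10.9% of all rows were called. Fitted in single preps, 4 of the 6 rows had called slopes in prep 1, where 19% of all rows did (9.33% higher and 9.72% lower), and 0 in preps 2, 3 and 4, where 0% of all rows did. In prep 1 the slopes were 0.12 ± 0.03 for chiA (limma adjusted p 0.0137), 0.13 ± 0.02 for PR-5 (limma adjusted p 0.00350), −0.05 ± 0.01 for GRMZM2G112488 (limma adjusted p 0.0287) and −0.10 ± 0.02 for GRMZM2G112538 (limma adjusted p 0.0139). In prep 3, which holds the same groups in the same order, the slopes of these rows were 0.03, 0.00, 0.03 and −0.02. In bHLH103 cells at place 12 chiA stood at 2924 RPKM in prep 1, against 1124 RPKM in GFP cells at place 1, and in prep 3 at 1573 RPKM in bHLH103 cells, against 1085 RPKM in GFP cells.

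**Figure D4:**
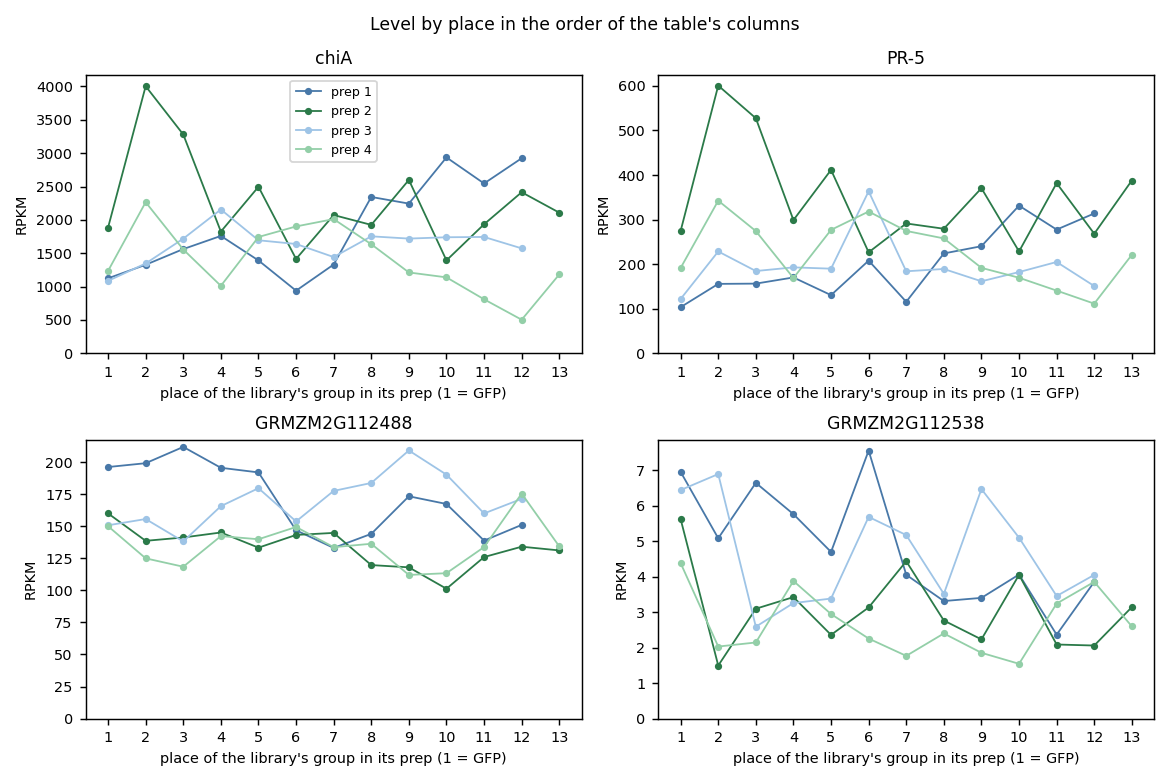
Level in RPKM of chiA, PR-5, GRMZM2G112488 and GRMZM2G112538 by the place of the group among the columns of its prep, with 1 line per prep and GFP at place 1. The prep 1 line of chiA climbs to 2936 RPKM at place 10, the prep 3 line peaks at 2155 RPKM, and the prep 4 line is lowest at place 12, at 503 RPKM.

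Across libraries, chiA, PR-5 and geb1 varied together and GRMZM2G112538 varied the other way. These correlations are of log2 values centred on the mean of each prep over 50 libraries that share preps, depth and scaling, and they are given as a description. chiA and PR-5 had Pearson's r 0.82 (Spearman's rho 0.81), which was 0.78 without the 2 libraries farthest from the median of chiA and ranged from 0.32 in prep 3 to 0.97 in prep 4. For chiA and geb1 r was 0.67 (rho 0.66), 0.61 without the 2 farthest libraries, with 0.17 in prep 1 and 0.96 in prep 4. The pair geb1 and PR-5 had r 0.53 (rho 0.54), with 0.02 in prep 1. Between chiA and GRMZM2G112538 r was −0.61 (rho −0.61), from −0.76 to −0.55 in single preps, so that the negative sign held in each of the 4 preps. The r of geb1 with GRMZM2G112538 was −0.47 (−0.64 to −0.21 in single preps). That of PR-5 with GRMZM2G112538 was −0.42 (−0.56 to 0.02), with no negative sign in prep 3. PR-1, with its few reads, had r of 0.06 to 0.45 with the other 5 rows. GRMZM2G112488 and GRMZM2G112538, the rows listed as PR10, had r 0.45 (rho 0.47), and each was closer to the row that the gene table names PR10: GRMZM2G112524 had r 0.77 (0.67 to 0.87 in single preps) with GRMZM2G112488 and 0.62 (0.46 to 0.80) with GRMZM2G112538. How reads shared by near-identical copies were counted is not given in the sources used here, so the levels of these 3 rows and of the chitinase rows are uncertain to that extent.

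The rows most like each member over the 50 libraries were taken by the same r. For chiA they were GRMZM2G164074 (r 0.96), GRMZM2G090245 (ALDH12 or mis1, r 0.96) and GRMZM2G053206 (r 0.96), where 99% of all rows lay below 0.83. GRMZM2G053206 had a mean of 1846 RPKM, close to that of chiA. For PR-5 they were GRMZM2G342033 (r 0.87), GRMZM2G089854 (r 0.84) and the glutathione transferase gene gst23 (GRMZM2G416632, r 0.84). GRMZM2G112488 was most like GRMZM2G112524 (r 0.77), followed by GRMZM5G868273 (r 0.76) and GRMZM2G542272 (r 0.75). For geb1 the nearest rows were GRMZM2G135743 (r 0.81), GRMZM5G805609 (r 0.80) and GRMZM2G039639 (r 0.80), and for GRMZM2G112538 they were GRMZM2G176499 (r 0.80), GRMZM2G472565 (r 0.76) and GRMZM2G306679 (r 0.75). PR-1 had no row above r 0.62, which was that of the glutathione transferase gene gst35 (GRMZM2G161891).

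Other defence genes were taken from the gene table by symbol. The other pathogenesis-related and antimicrobial list held 7 rows, all tested: chiB, chiI and chn1 (chitinases), CHI (chi1), wip1 (a wound-induced proteinase inhibitor), Zlp (zeamatin-like) and GRMZM2G112524. CHI was matched by symbol only and may not stand for a chitinase or any pathogenesis-related gene. Like the 6 members, they gave 0 called changes in 161 tests against GFP, where 0.208% of all row tests were called. wip1 was the most abundant, at a mean of 7674 RPKM, and chiB the lowest, at 6.08 RPKM. Between preps 4 and 2, 5 of these 7 rows, CHI among them, were called lower and 1 higher, where 17.9% of all rows were called lower and 15.5% higher. chn1 was lower by a log2 difference of −0.95 ± 0.08 (SE; limma adjusted p 1.13e-06), close to that of geb1, and GRMZM2G112524 was higher by 0.35 ± 0.06 (SE; limma adjusted p 0.000475). Between preps 3 and 1, 0 of the 7 were called. Along the places of preps 1 and 3, chn1 and Zlp had called positive slopes of 0.069 and 0.046 and GRMZM2G112524 a called negative slope of −0.054 log2 units per place (limma adjusted p 0.00457), where 4.22% of all rows had a called positive and 3.92% a called negative slope.

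Called changes against GFP were rare in the signalling and phytoalexin lists and also over all rows, where 0.208% of tests were called. Immune signalling rows, which were mlo, MAP kinase, rboh and hm1 rows with no gene of salicylate synthesis among them, gave 0 called changes of 322 tests (14 rows) and phytoalexin genes 0 of 437 (19 rows, in which some symbols of the form TPS may stand for trehalose-phosphate synthases). The jasmonate list, in which 1 tested row carries the symbol Coilin and is not known as a jasmonate gene, gave 2 of 667 (29 rows), both of the repressor gene JAZ9 (GRMZM2G145407) and both higher, 0.3% of its tests against 0.197% over all rows (0.868% in NAC29 and 2.21% in MYB131). JAZ9 stood at 3.86 and 8.63 RPKM in NAC29 cells of preps 1 and 3, against 1.44 and 0.501 RPKM in GFP cells, a log2 change of 2.18 ± 0.48 (SE; limma adjusted p 0.0155). In MYB131 cells of preps 2 and 4 it stood at 6.64 and 2.18 RPKM, against 0.987 and 0.687 RPKM in GFP cells, a log2 change of 1.72 ± 0.48 (SE; limma adjusted p 0.0395). These are the regulators with the highest PR-5 and the lowest GRMZM2G112488 changes, neither of which was called. Between preps 4 and 2, 13 jasmonate rows of 29 were called lower and 4 higher, 11 phytoalexin rows of 19 lower and 3 higher, and 6 immune signalling rows of 14 lower and 1 higher, where 17.9% of all rows were called lower and 15.5% higher.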

How the data were processed

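The authors deposited 1 table of RPKM per gene for 50 libraries. The submitters' processing notes name HISAT2 2.1.0, featureCounts of Subread 1.6.3, edgeR 3.20.9 and the build B73 RefGen_v3. Per the labels, libraries were poly(A)-selected and strand-specific. Whole reads were recovered from ratios between deposited RPKM values for 30213 of 30213 rows (100% of values whole within 0.05 reads), which gave depth. Here, log2(RPKM + 0.5) was fitted in limma 3.58.1 (R 4.3.3) with a variance trend: 25 groups in one fit (25 residual degrees of freedom), and separate fits for preps (group as block) and for place (group means). The fold changes on this scale understate changes of low rows such as PR-1. P-values were adjusted over 28122 rows per comparison, and the steps were tested on simulated data. The GFP and regulator samples share prep numbers, which mark the protoplast isolation, so prep pairs them: the prep difference of one group correlated with that of another with a median r of 0.131 in preps 1 and 3 (from −0.210 to 0.497, 66 pairs) and 0.253 in preps 2 and 4 (from −0.047 to 0.474, 78 pairs). P-values of the regulator changes measure the spread between preps, and those of the prep and place fits the spread between groups within a pair of isolations. Intervals do not cover molecules, since reads lack molecular identifiers. The members and lists were chosen with earlier results of these data known. In each comparison all 6 rows were described, with the regulators of their highest and lowest change, the 3 most correlated rows each, and list members called where a member was described. Alternatives were no filter, pseudocounts of 0.1 and 1, prep as a replicate block, 1 fit per prep pair, other regulators or a line by place as reference, rescaling (factors 0.983 to 1.01), adjustment over all comparisons, no fold minimum, limma-voom, and leaving out each library. The gene table matched 14595 row IDs, and no positions are given because its assembly is not that of the files.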

Additional observations from a re-analysis of the deposited data

Results flagged for a closer look

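The chiA slope by place differed between the prep pairs by −0.13 log2 units per place (preps 2 and 4 minus preps 1 and 3; −0.061 in preps 2 and 4, 0.074 in preps 1 and 3), by a test of the difference itself (limma adjusted p 0.0138). Without the GFP groups the slopes were −0.084 and 0.063, and without EREB69 the slope of preps 2 and 4 was −0.073. The PR-5 slope differed in the same way by −0.11 (−0.049 in preps 2 and 4, 0.063 in preps 1 and 3; limma adjusted p 0.0367), with −0.073 and 0.041 without the GFP groups. Without the GFP groups the difference was −0.15 for chiA (limma adjusted p 0.0193) and −0.11 for PR-5 (limma adjusted p 0.0476). Without EREB69 it was −0.15 (limma adjusted p 0.00676) and −0.13 (limma adjusted p 0.0126). The test of the difference was chosen after the slopes had been seen. In single preps the chiA slope was 0.12 in prep 1 and 0.03 in prep 3, and the PR-5 slope 0.13 in prep 1 and 0.00 in prep 3. The 2 EREB69 columns stand at the end of the table. The place of a group cannot be told apart from its regulator.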

How the results depend on the processing

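The count of called changes against GFP was 0 in all 63 other settings, of 132 tests without the EREB69 libraries and of 138 elsewhere, among them prep as a replicate block, limma-voom, the line by place as reference, and leaving out each library in turn (from 0 to 0 over 50 fits; an arm with 1 library is assumed to vary like the other groups). Unadjusted p below 0.05 came to 33 tests with the replicate block (12.2% of all rows), and the block changed no call of the 6 rows. Signs of uncalled changes turned in 0 to 16 of 138 when 1 library was left out, most without the GFP library of prep 4, in 40 with the line by place and in 48 with the other regulators as reference. The last 2 references balance the values of a row around 0 within a prep pair, so some of these signs had to turn. Calls between preps 3 and 1 numbered 1, and 2 both without the GFP libraries and with no replicate block, where PR-1 joined geb1 (limma adjusted p 0.0339 and 0.0409). Calls between preps 4 and 2 numbered 3 under each of the 7 alternatives. Calls by place numbered 0 over all groups, 1 in preps 1 and 3 alone, 4 in prep 1 alone and 0 in the other settings run. The fits of single preps, without GFP within a prep pair and without EREB69 within preps 2 and 4, the difference of the slopes and its refits, and the other-regulator reference with the block, were chosen after seeing the data. Depth limits PR-1, with 1 to 43 reads per library, and GRMZM2G112538, with 12 to 82.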
